A study of Homo sapiens with 9 samples.

Results

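MZT1, the other MZT proteins, gamma-tubulin, its partner proteins and NEDD1 were followed across 9 bulk RNA-seq libraries from MDA-MB-468, a long-established line of human breast adenocarcinoma cells. The genes were taken by symbol, as 10 of the 56809 genes in the count table: MZT1, MZT2A, MZT2B, TUBG1, TUBGCP2, TUBGCP3, TUBGCP4, TUBGCP5, TUBGCP6 and NEDD1. All 10 passed the filter on low counts and were among the 14709 genes tested. MZT1 was chosen because its level differed between 2 hairpins in these same libraries, so its values are given as a description with no test. The other 9 genes were taken for their place in the same protein complex, with their earlier results known.

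Control cells carried the empty vector pSicoR, a lentiviral vector made to express short hairpin RNAs. The other cells were infected with a hairpin construct, shLMO2-1 or shLMO2-2, named after LMO2, a LIM-domain cofactor of transcription. Each of the 3 groups had 3 libraries, and the controls had been infected as well. The labels give no treatment, time after infection, hairpin sequence or clone, and do not say whether replicates came from separate cultures. The p-values below therefore measure the spread between these libraries, which may be technical.

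Microtubules are tubes of alpha- and beta-tubulin, and a new one starts most readily from the gamma-tubulin ring complex. In this complex TUBG1 (gamma-tubulin) sits on a ring of the proteins TUBGCP2 to TUBGCP6, and the small proteins MZT1 and MZT2 bind the ends of those ring proteins. NEDD1 brings the complex to centrosomes and to the mitotic spindle, so that dividing cells depend on these genes to build a spindle.

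Library totals ran from 15494486 to 23069456 estimated counts. LMO2, the hairpins' target, held 4 to 35 counts in controls (4 in replicate 1, within the shLMO2-1 range), 1 to 6 with shLMO2-1 and 1 to 4 with shLMO2-2. Its log2 fold change against control was −2.44 (SE 0.813, adjusted p 0.0907) with shLMO2-1 and −3.02 (SE 0.819, adjusted p 0.0441) with shLMO2-2, and the latter adjusted p ran from 0.00296 to 0.138 over the alternative settings. The shLMO2-2 call held in 8 of 17 alternative settings, and not with limma-voom (0.0928) or only the groups compared (0.062). It was also lost when any 1 of 7 libraries was left out, all but control replicate 1 and shLMO2-1 replicate 3 (0.062 to 0.138). The shLMO2-1 value passed without control replicate 1 (−2.90, adjusted p 0.0268). Control replicate 1 stood apart from the other libraries on the first principal component (−47.84, against −20.59 and −23.41 for the other controls and −0.94 to 33.58 for the hairpin libraries). Replicate 1 was also the lowest of each hairpin group there. The second component fell from replicate 1 to 3 in every group (14.96 to −29.71 in control, 29.67 to −14.76 with shLMO2-1 and 22.28 to −16.51 with shLMO2-2). The 10 markers listed for a basal-like epithelial line were KRT5, KRT6A, KRT14, KRT16, KRT17, KRT8, KRT18, EPCAM, CDH1 and EGFR, so not all are basal keratins. All were present and summed to 12900 to 14550 CPM (counts scaled to library size) in control, 15010 to 15720 with shLMO2-1 and 14250 to 15550 with shLMO2-2. EGFR was the largest (median 6431 CPM). With shLMO2-1 2 passed as higher (KRT8, EGFR) and 2 as lower (KRT5, KRT14), where 8.42% of all genes passed. With shLMO2-2 2 were higher (KRT8, KRT18) and 1 lower (KRT14), where 8.97% passed, so the sum hides opposite changes. The 3 hormone receptor and luminal markers summed to 40.81 to 50.33, 41.89 to 47.06 and 42.61 to 50.17 CPM, mostly GATA3. Of 5 fibroblast markers 4 were under 1 CPM in every library, and of 5 leukocyte markers 3 were at 0 (summed levels 0.912 to 1.56 CPM in control, 1.98 to 3.61 with shLMO2-1 and 2.73 to 2.85 with shLMO2-2). The 4 endothelial markers summed to 5.52 to 13.53, 12.26 to 17.56 and 7.85 to 10.77 CPM, mostly KDR. The part of these differences in the results below was not tested.

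MZT1 lies on the minus strand of chromosome 13 (chr13:72708357-72727687, GENCODE 29, GRCh38) and overlaps no other gene. It has 1 annotated transcript of 2299 bases. BORA, which encodes a co-factor of the mitotic kinase Aurora A, starts 61 bases away on the other strand, so both genes are read from a common stretch. In RefSeq the start sites of the 2 genes lie 294 bases apart, and that of MZT1 lies 58 bases inside its GENCODE transcript. The 250 bases before the MZT1 start site in RefSeq (GRCh38.p14, chr13:72727630-72727879, minus strand) are the only ones among the members with a RefSeq window that hold matches to both motifs searched. These were CCAAT, which the factor NF-Y binds, and TTTGAA, the core of the cell cycle genes homology region (CHR), each on both strands and with no overlap between them. The distal stretch (chr13:72727822-72727879) is shown because it holds both CCAAT matches, and the proximal stretch (chr13:72727688-72727756) because it holds the TTTGAA match, read there as its reverse complement. Both are on the minus strand and in the MZT1 direction, and capitals mark the matches.
MZT1 distal stretch: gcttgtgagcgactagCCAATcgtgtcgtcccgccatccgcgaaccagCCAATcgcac
MZT1 proximal stretch: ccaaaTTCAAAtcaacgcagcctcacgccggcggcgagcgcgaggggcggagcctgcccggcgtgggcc

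The CCAAT matches lay 234 and 202 bases before the RefSeq start site and the TTTGAA match 122 bases before it. From the GENCODE start these distances were 176, 144 and 64 bases. The last 58 bases of the window lie in the annotated UTR of MZT1, and both CCAAT matches lie inside the GENCODE gene of BORA. Among 35116 RefSeq windows of the same length, 32% held CCAAT, 13.3% held TTTGAA and 4.69% held both. The windows of MZT1 and BORA share 207 bases, and both CCAAT matches and the TTTGAA match lie in the BORA window as well. Of the 10 members, 9 had a RefSeq window. CCAAT was also found in those of MZT2A and MZT2B, which lie wholly inside the GENCODE genes, and of TUBG1 and TUBGCP5, and TTTGAA in none of the other members. A match describes letters in the window and is not evidence of binding.

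MZT1 RNA was at 47.1% of the control level in cells with shLMO2-1 and at 101% of it in cells with shLMO2-2. It held 825, 861 and 738 counts in control replicates 1 to 3, or 47.8, 44.1 and 39.0 CPM. With shLMO2-1 there were 380, 353 and 297 counts (21.4, 20.7 and 19.6 CPM), and with shLMO2-2 1015, 898 and 1047 counts (44.1, 41.7 and 47.0 CPM). All 3 shLMO2-1 libraries were below all 6 others, and the control and shLMO2-2 libraries overlapped.

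Mean MZT1 abundance was 43.7 ± 4.43 CPM in control, 20.5 ± 0.903 CPM with shLMO2-1 and 44.3 ± 2.68 CPM with shLMO2-2 (SD, n = 3). The log2 fold change against control was −1.09 (SE 0.094, 95% interval −1.29 to −0.88) with shLMO2-1 and 0.02 (SE 0.0898, −0.18 to 0.22) with shLMO2-2. MZT1 was 1.11 higher with shLMO2-2 than with shLMO2-1 on the log2 scale (SE 0.0936, 0.90 to 1.31). These 3 values chose the gene and support nothing further. When each library was left out in turn they ran from −1.16 to −1.02, from −0.05 to 0.08 and from 1.06 to 1.14. In bulk RNA, fewer cells with the transcript and less of it per cell cannot be told apart.

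Reads of MZT1 could hardly belong to another gene. Of its transcript's stretches of 31 bases, 0.223% also occurred in another gene, the pseudogene MZT1P1, which had 0 counts in every library. Its counts were whole numbers in 9 of 9 libraries, within a tolerance of 0.002. By contrast 60.9% of such stretches in MZT2B, 35.3% in TUBG1, 34.7% in TUBGCP4 and 33.3% in MZT2A were shared with other genes.

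**Figure D1:**
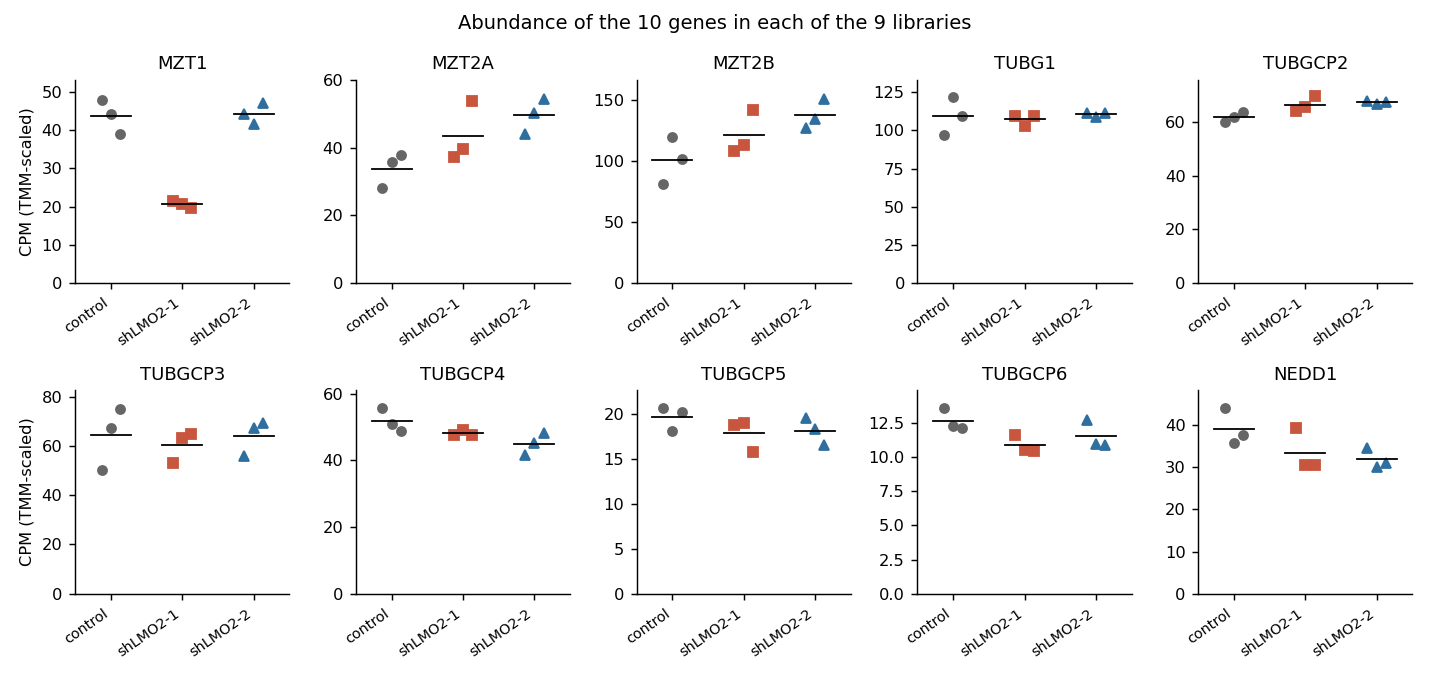
Level of each of the 10 genes in every library (CPM, axes from 0, scaled per gene), with libraries of control (circles), shLMO2-1 (squares) and shLMO2-2 (triangles) as points and group means as lines. In MZT1 the 3 shLMO2-1 libraries sit at 19.6 to 21.4 CPM, below the 39.0 to 47.8 CPM of the controls, while the means of the other 9 genes stand between 81.5% and 147% of control.

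MZT1 was next set against its partners within the same library, since such a ratio does not depend on how libraries are scaled to each other. The ratio of MZT1 counts to the geometric mean of TUBGCP2 to TUBGCP6 was 1.39, 1.29 and 1.09 in controls. It was 0.661, 0.621 and 0.605 with shLMO2-1 and 1.34, 1.25 and 1.41 with shLMO2-2. Mean log2 ratios were 0.32 ± 0.178 in control, −0.67 ± 0.066 with shLMO2-1 and 0.41 ± 0.0873 with shLMO2-2 (SD, n = 3). All 3 shLMO2-1 libraries thus had a lower ratio than every other library. Counts here are not divided by transcript length, so a ratio above or below 1 does not rank MZT1 against the ring proteins. Against TUBG1 the ratio was 0.492, 0.361 and 0.356 in controls, 0.195, 0.201 and 0.179 with shLMO2-1, and 0.397, 0.384 and 0.422 with shLMO2-2. These ratios contain the MZT1 values that chose the gene, and no test was made.

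Levels of the members were compared with each other per kilobase of the longest annotated transcript. In control cells MZT2B was highest, at 108 ± 20.6 CPM per kilobase, followed by TUBG1 at 68.1 ± 7.73 and MZT1 at 19.0 ± 1.93 (SD, n = 3). The ring proteins TUBGCP3 (15.7 ± 3.09) and TUBGCP2 (14.4 ± 0.444) came next, then MZT2A (11.96 ± 1.83), NEDD1 (9.69 ± 1.06), TUBGCP4 (7.62 ± 0.534), TUBGCP5 (5.13 ± 0.363) and TUBGCP6 (2.09 ± 0.135). MZT1 and TUBGCP3 overlapped in their control libraries (16.97 to 20.8 against 12.27 to 18.31), as did TUBGCP3 with TUBGCP2 and MZT2A with NEDD1. TUBGCP5 and TUBGCP6, which in the ring are present in fewer copies than TUBGCP2 and TUBGCP3, were the lowest. By the longest transcript, the control libraries of MZT2B, TUBG1 and MZT1 did not overlap each other. With shLMO2-1 MZT1 stood at 8.94 ± 0.393 CPM per kilobase, below TUBGCP3 (14.7 ± 1.59) and within the spread of NEDD1 (mean 8.26). With the merged length of all exons the first 4 places and the last 3 were the same, while NEDD1 (8.78) came before MZT2A (8.26) and TUBGCP2 (8.03). By that length TUBG1 (45.5 ± 5.17) lay within the spread of MZT2B (55.3 ± 10.6), so the order of these genes depends on the length used.

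The genes beside MZT1 on chromosome 13 were read next. BORA stood at 11.4, 10.6 and 10.8 CPM in controls, 11.4, 11.1 and 9.96 with shLMO2-1 and 10.83, 12.49 and 10.96 with shLMO2-2, so the groups overlapped. Its log2 fold change was −0.01 with shLMO2-1 (95% interval −0.26 to 0.24, adjusted p 0.964) and 0.06 with shLMO2-2 (−0.18 to 0.31, adjusted p 0.775). The interval for shLMO2-1 does not reach the −1.09 of MZT1, a value that chose the gene, so the comparison is a description only. Any part of the common stretch in the MZT1 values was not tested. The ratio of MZT1 to BORA counts was 4.2, 4.18 and 3.6 in controls, 1.87, 1.86 and 1.97 with shLMO2-1 and 4.08, 3.34 and 4.28 with shLMO2-2. The shLMO2-1 libraries thus had a lower ratio than all others for these 2 genes, which start from a common stretch in opposite directions.

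DIS3, the catalytic nuclease of the RNA exosome, lies 24481 bases from MZT1 and had log2 fold changes of −0.07 (adjusted p 0.655) and −0.01 (adjusted p 0.930) with shLMO2-1 and shLMO2-2. PIBF1, a centrosomal protein gene 54371 bases away, had values of −0.27 (adjusted p 0.395) and −0.32 (adjusted p 0.287). KLF5, a transcription factor gene 327288 bases away, had values of 0.29 (adjusted p 0.136) and 0.21 (adjusted p 0.269). The KLF5 value with shLMO2-1 passed with no filter on low counts (adjusted p 0.029). By edgeR's quasi-likelihood test with Benjamini-Hochberg adjustment 0 of the 4 neighbours passed in either hairpin, where 8.42% and 8.97% of all 14709 genes did, and 1 and 0 had an unadjusted p under 0.05. DESeq2 and limma-voom called 0. For 4 genes a count of 0 is near these backgrounds.

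**Figure D2:**
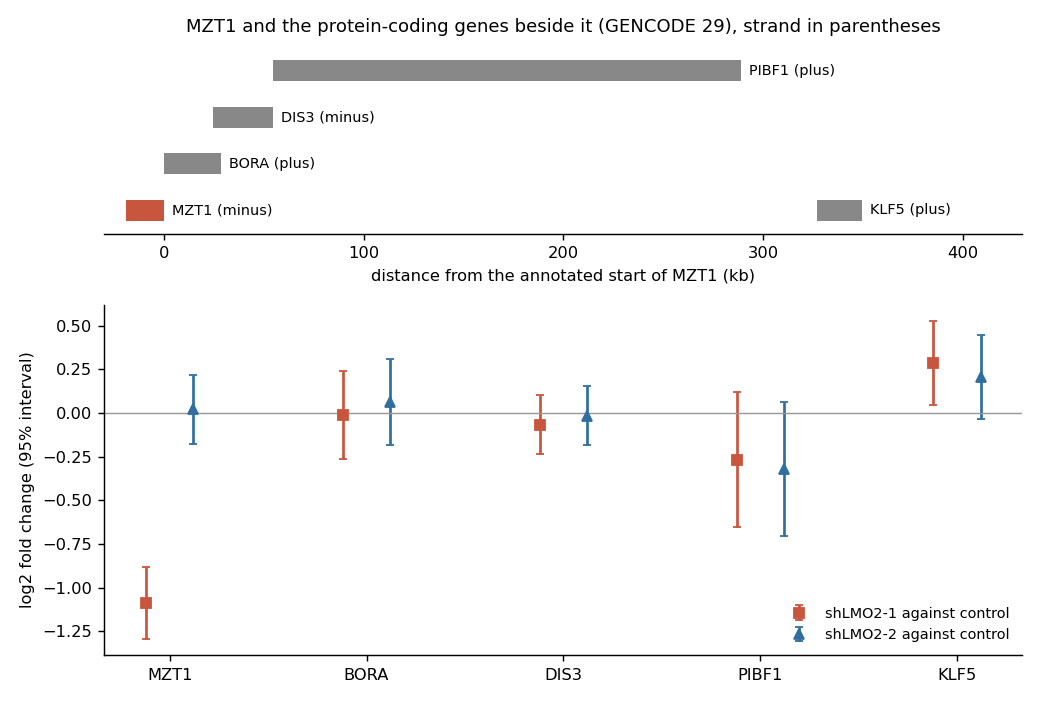
Above, the genes drawn by distance from the start of MZT1 in kilobases. Below, the log2 fold change against control of MZT1 and its 4 neighbours for shLMO2-1 and shLMO2-2, with 95% intervals. MZT1 stands at −1.09 with shLMO2-1, while the interval of BORA, which starts 61 bases away, runs from −0.26 to 0.24.

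Of the other 9 members, none passed the test with shLMO2-1 against control, where 8.42% of all 14709 genes did, and 1 had an unadjusted p under 0.05 (edgeR's quasi-likelihood test; DESeq2 and limma-voom also called 0). In shLMO2-2, where 8.97% of all genes passed, 1 of 9 did, namely MZT2A, and 4 had an unadjusted p under 0.05. There limma-voom called 1 (MZT2A) and DESeq2 called 2 (MZT2A and MZT2B), where they called 1373 and 1837 of all genes. In an alternative edgeR fit with the replicate number as a block, 1 passed with shLMO2-1 (MZT2A) and 3 with shLMO2-2 (MZT2A, MZT2B and NEDD1). There 2214 and 2377 of all genes passed, and the labels do not say that the numbers pair libraries. In the main fit the median log2 fold change of the 9 was −0.09 with shLMO2-1 and −0.01 with shLMO2-2, beside medians of 0.00091 and −0.00024 over all genes tested. Both comparisons use the same control libraries. Between the hairpins 0 of 9 passed, 0 had an unadjusted p under 0.05, and DESeq2 and limma-voom called 0, where 0.768% of all genes passed. In the main fit the shares for the members are near these backgrounds.

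TUBG1, the gamma-tubulin on which a new microtubule starts, stood at 97.2, 122 and 110 CPM in controls, 110, 103 and 109 CPM with shLMO2-1 and 111, 109 and 112 CPM with shLMO2-2. All hairpin libraries lay within the control range. Its log2 fold change was −0.03 with shLMO2-1 (95% interval −0.21 to 0.14, adjusted p 0.857) and 0.01 with shLMO2-2 (−0.17 to 0.18, adjusted p 0.954). Neither interval reaches the −1.09 of MZT1 with shLMO2-1, but that value chose the gene, so the comparison is a description only. The sign of the shLMO2-2 value turned under total-count scaling (−0.038). TUBG2, the other gamma-tubulin gene, shares 23.5% of the 31-base stretches of TUBG1. With the counts of both summed the values were −0.01 (adjusted p 0.949) and 0.02 (adjusted p 0.916). TUBG1 lies at chr17:42609676-42615234 (plus strand) and overlaps RETREG3.

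TUBGCP2 and TUBGCP3 form the repeated units of the ring together with gamma-tubulin. TUBGCP2 (chr10:133278630-133312337, minus strand, overlapping ZNF511) stood at 59.8, 61.9 and 63.7 CPM in controls, 63.9, 65.7 and 69.6 with shLMO2-1 and 67.9, 66.6 and 67.4 with shLMO2-2. All 6 hairpin libraries lay above all 3 controls, by a small margin. How many of all tested genes separate in this way was not counted, so this and like remarks on other genes are descriptions only. The log2 fold changes were 0.10 (95% interval −0.03 to 0.24, adjusted p 0.343) and 0.12 (−0.01 to 0.26, adjusted p 0.246), which did not pass.

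TUBGCP3 (chr13:112485005-112588205, minus strand) stood at 50.4, 67.6 and 75.3 CPM in controls, 53.0, 63.4 and 65.1 with shLMO2-1 and 56.0, 67.3 and 69.3 with shLMO2-2. Replicate 1 was well below the others in each group, and the groups overlapped throughout. The log2 fold changes were −0.09 (95% interval −0.40 to 0.22, adjusted p 0.748) and −0.01 (−0.31 to 0.30, adjusted p 0.984).

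TUBGCP4, TUBGCP5 and TUBGCP6 complete the ring. TUBGCP4 (chr15:43369221-43409771, plus strand) overlaps TP53BP1, with which it shares 31.3% of its 31-base stretches, which limits how well its reads can be assigned. It stood at 55.8, 50.8 and 48.7 CPM in controls, 47.5, 49.2 and 47.7 with shLMO2-1 and 41.5, 45.4 and 48.2 with shLMO2-2. The shLMO2-2 libraries lay below all controls, the nearest by under 1 CPM. The log2 fold changes were −0.10 (95% interval −0.28 to 0.07, adjusted p 0.469) and −0.20 (−0.38 to −0.03, adjusted p 0.142), which did not pass.

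TUBGCP5 (chr15:22983192-23039673, minus strand) stood at 20.8, 18.1 and 20.3 CPM in controls, 18.8, 19.0 and 15.8 with shLMO2-1 and 19.7, 18.3 and 16.6 with shLMO2-2, with overlap between all groups. Its log2 fold changes were −0.14 (95% interval −0.38 to 0.10, adjusted p 0.492) and −0.12 (−0.36 to 0.12, adjusted p 0.554). TUBGCP6 (chr22:50217689-50244992, minus strand) stood at 13.6, 12.2 and 12.2 CPM in controls, 11.6, 10.5 and 10.4 with shLMO2-1 and 12.74, 10.96 and 10.92 with shLMO2-2. The shLMO2-1 libraries lay below all controls. The log2 fold changes were −0.22 (95% interval −0.47 to 0.03, adjusted p 0.269) and −0.13 (−0.38 to 0.11, adjusted p 0.505), and neither passed.

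NEDD1 (chr12:96907223-96953777, plus strand), the protein that brings the ring to centrosomes and spindles, stood at 44.0, 35.8 and 37.7 CPM in controls, 39.3, 30.5 and 30.5 with shLMO2-1 and 34.6, 30.1 and 31.1 with shLMO2-2. The shLMO2-2 libraries lay below all controls, while shLMO2-1 replicate 1 lay within their range. The log2 fold changes were −0.23 (95% interval −0.49 to 0.03, adjusted p 0.269) and −0.29 (−0.55 to −0.03, adjusted p 0.148), which did not pass. The shLMO2-2 value passed in the edgeR fit with a replicate block (adjusted p 0.0199). NEDD1 shared no 31-base stretch with another gene. Between the hairpins it differed by −0.07 (−0.33 to 0.20, adjusted p 0.917).

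**Figure D3:**
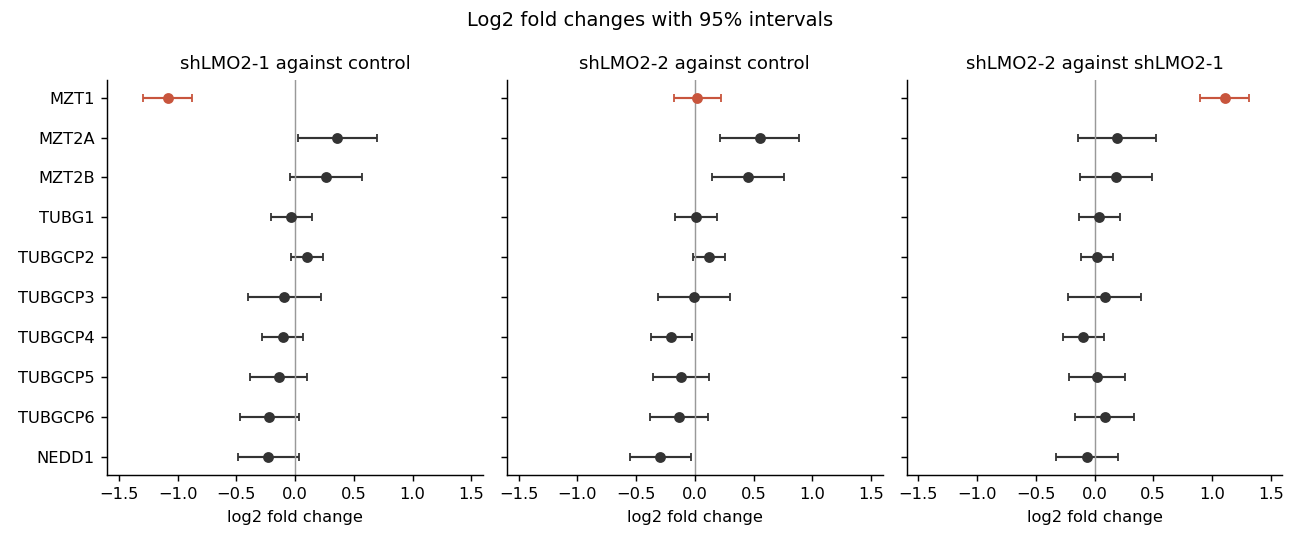
Log2 fold change with 95% interval of each of the 10 genes, for shLMO2-1 against control, shLMO2-2 against control and shLMO2-2 against shLMO2-1. MZT1 stands apart at −1.09 with shLMO2-1, and the values of the other 9 genes against control lie between −0.29 and 0.55.

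MZT2A and MZT2B, close copies on chromosome 2 that encode the MZT2 proteins of the ring, were the members with the highest fold changes in both hairpins. By edgeR's quasi-likelihood test in the main fit MZT2A passed with shLMO2-2 and MZT2B did not, while DESeq2 called both there. MZT2A (chr2:131464900-131492743, minus strand, overlapping TUBA3D) and MZT2B (chr2:130181737-130190729, plus strand, overlapping SMPD4) are so alike that the 250 bases before their RefSeq start sites differ at 19 positions (92.4% identical, with no gap). Both windows lie wholly inside the GENCODE genes. MZT2B shares 38.8% of its 31-base stretches with SMPD4, and MZT2A shares 14.3% with MZT2B. How reads were divided between these genes is uncertain, and the estimated counts of MZT2B were not whole in any library.

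MZT2A stood at 27.9, 35.7 and 37.7 CPM in controls, 37.1, 39.5 and 53.8 with shLMO2-1 and 44.1, 50.3 and 54.3 with shLMO2-2. All shLMO2-2 libraries lay above all controls, replicate 1 was the lowest library of each group, and the lowest shLMO2-1 library overlapped the controls. MZT2A rose with shLMO2-2 by 0.55 on the log2 scale (SE 0.151, 95% interval 0.22 to 0.88, adjusted p 0.0461). In shLMO2-1 its log2 fold change was 0.36 (0.02 to 0.70, adjusted p 0.176), and the difference between the hairpins was 0.19 (−0.14 to 0.52, adjusted p 0.753).

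The rise of MZT2A with shLMO2-2 no longer passed when control replicate 1 was left out (0.42, adjusted p 0.102), nor without control replicate 2 (0.59, 0.0665), control replicate 3 (0.64, 0.0681), shLMO2-1 replicate 2 (0.54, 0.0686) or shLMO2-2 replicates 1 (0.62, 0.0604), 2 (0.53, 0.129) or 3 (0.475, 0.157). It held in 11 of 18 alternative settings, with adjusted p from 5.04e-05 to 0.157.

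MZT2B stood at 80.8, 119 and 101 CPM in controls, 108, 113 and 142 with shLMO2-1 and 127, 134 and 150 with shLMO2-2. As with MZT2A, all shLMO2-2 libraries lay above all controls and replicate 1 was the lowest of each group. Its log2 fold change was 0.45 with shLMO2-2 (95% interval 0.14 to 0.76, adjusted p 0.0708) and 0.27 with shLMO2-1 (−0.04 to 0.57, adjusted p 0.276). Neither passed by edgeR's quasi-likelihood test in the main fit. The shLMO2-2 value passed in 4 of 18 alternative settings, and over the alternatives its adjusted p ran up to 0.222. The 4 were DESeq2 (0.45, adjusted p 0.0221), no filter on low counts (0.45, adjusted p 9.67e-05), a replicate block (0.46, adjusted p 0.0088) and the fit without control replicate 2 (0.59, adjusted p 0.028). The summed counts of both genes do not depend on how reads were divided between them, but still depend on the division with other genes, such as SMPD4. The sum was 134 ± 23.5 CPM in control, 164 ± 27.2 with shLMO2-1 and 187 ± 16.9 with shLMO2-2 (SD, n = 3). The log2 fold change of the sum was 0.29 with shLMO2-1 (adjusted p 0.232) and 0.48 with shLMO2-2 (SE 0.139, 95% interval 0.17 to 0.78, adjusted p 0.0571), so that neither passed. The shLMO2-2 value of the sum passed in 6 of 18 alternative settings. It did without control replicate 2 (0.59, adjusted p 0.0348), without shLMO2-1 replicate 3 (0.47, adjusted p 0.0363), with DESeq2 (0.47, adjusted p 0.0124) and with limma-voom (0.48, adjusted p 0.048). In edgeR it also did with no filter on low counts (0.48, adjusted p 1.62e-05) and with a replicate block (0.48, adjusted p 0.00413).

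The other genes that anchor, extend or use the ring complex were read from lists chosen by function. Over all genes tested, 4.54% passed as higher and 3.88% as lower with shLMO2-1, and 4.94% and 4.04% with shLMO2-2, with medians near 0. In either direction 1239 and 1320 genes passed with the 2 hairpins. These became 1749 and 1837 with DESeq2, 1126 and 1373 with limma-voom, and 1397 and 1131 without control replicate 1. Of 16 recruitment factors, which include TUBG2 and the scaffold genes CDK5RAP2 and PCNT, 0 passed edgeR's quasi-likelihood test in either hairpin, 3 had an unadjusted p under 0.05 in each, and DESeq2 and limma-voom called 0. Their median log2 fold change was −0.13 with shLMO2-1 and −0.15 with shLMO2-2. Without control replicate 1, 1 passed as higher and 2 as lower with shLMO2-1 (NIN, a centrosomal anchor, 0.62; AURKA, the Aurora A kinase, −0.32; TPX2, its activator, −0.36) and 1 as lower with shLMO2-2 (TPX2, −0.34).

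Augmin is a complex of 8 subunits that recruits the ring to existing spindle microtubules. In shLMO2-1 0 of 8 passed, 3 had an unadjusted p under 0.05, limma-voom called 0, and DESeq2 called 1 (HAUS2, −0.40). Without control replicate 2 HAUS4 passed there (0.38, adjusted p 0.0389). In shLMO2-2 1 of 8 passed: HAUS4 rose by 0.36 (SE 0.098, adjusted p 0.0435), from 49.2 ± 6.87 to 63.3 ± 3.41 CPM (SD, n = 3). HAUS4 did not pass with total-count scaling (adjusted p 0.0525), with only the groups compared (0.0857) or when any single library other than control replicate 2 was left out (adjusted p 0.0527 to 0.152), among them control replicate 1 (0.26, adjusted p 0.0895). The list's medians were −0.03 and −0.12.

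Among 15 genes of centriole duplication, 3 fell and 0 rose with shLMO2-1. CEP57 fell by 0.35 (SE 0.0744, adjusted p 0.017), CEP97, which caps centrioles, fell by 0.41 (SE 0.112, adjusted p 0.0482) and STIL, a scaffold of the new centriole, fell by 0.25 (SE 0.0605, adjusted p 0.0277). In shLMO2-2 STIL alone passed, and fell by 0.27 (SE 0.0603, adjusted p 0.0202). STIL stood at 154 ± 6.96 CPM in control, 129 ± 4.31 with shLMO2-1 and 128 ± 3.85 with shLMO2-2 (SD, n = 3), and neither hairpin group overlapped the controls. The list's medians were −0.17 and −0.09. In shLMO2-1 the CEP57 call was lost without shLMO2-1 replicate 1 or 3 (adjusted p 0.0505 and 0.0748), the STIL call without control replicate 3, any shLMO2-1 replicate or shLMO2-2 replicate 2 (0.0533 to 0.102), and the CEP97 call without any of 7 libraries, all but shLMO2-1 replicate 1 and shLMO2-2 replicate 1 (0.0635 to 0.159). With only the groups compared none of the 3 passed (CEP57 0.0539, STIL 0.07, CEP97 0.0757), and limma-voom did not call CEP97 (0.0545). In shLMO2-2 the STIL call was lost without control replicate 3 or shLMO2-2 replicates 2 and 3 (0.0523 to 0.0814).

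The alpha- and beta-tubulins are the subunits that the ring assembles, and 15 of them and their folding cofactors were measured. In shLMO2-1 TUBB2B rose by 0.93 (SE 0.13, adjusted p 0.00189), from 31.2 ± 2.98 to 59.6 ± 4.92 CPM, and TUBA1A rose by 0.60 (SE 0.11, adjusted p 0.00854), from 117 ± 11.98 to 177 ± 22.0 CPM (SD, n = 3). Both calls held in 18 of 18 alternative settings. In shLMO2-2 TUBB2B rose by 0.56 (SE 0.129, adjusted p 0.023), to 46.1 ± 8.55 CPM, while TUBA1A stood at 126 ± 13.1 CPM (0.11, adjusted p 0.588). None of the 15 fell by edgeR's test, while DESeq2 called TUBA4A lower with shLMO2-2 (−0.53), and the list's medians were −0.01 and 0.03. Between the hairpins 0 passed, 4 had an unadjusted p under 0.05 and limma-voom called 0. TUBA1A (−0.49, adjusted p 0.0812) passed there in 6 of 18 alternative settings, among them DESeq2 (adjusted p 0.00307), total-count scaling (0.0432), only the groups compared (0.0455), no filter on low counts (3.65e-05) and edgeR without control replicate 1 (0.0268). TUBB2B (−0.37, adjusted p 0.303) also passed with no filter (0.0394). TUBB2B did not pass with shLMO2-2 with only the groups compared (0.56, adjusted p 0.0511), without control replicate 1 (0.48, 0.0513) or without shLMO2-2 replicates 2 (0.58, 0.0664) or 3 (0.41, 0.0793). Tubulin genes are close copies of each other, and TUBA1A overlaps TUBA1C, so their counts are uncertain.

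Of 16 genes of mitosis, TTK, a kinase of the spindle checkpoint, fell by 0.26 with shLMO2-1 (SE 0.0627, adjusted p 0.0302) and by 0.34 with shLMO2-2 (SE 0.0625, adjusted p 0.00849). TOP2A, the topoisomerase that untangles chromosomes, fell by 0.25 with shLMO2-2 (SE 0.0642, adjusted p 0.0363). None rose, and the list's medians were −0.15 and −0.14. DESeq2 called 2 lower with shLMO2-1 (TTK and TOP2A, −0.21, adjusted p 0.0279) and 4 with shLMO2-2 (TTK, TOP2A, KIF23, −0.24, and BUB1, −0.21), and limma-voom 1 and 2. Between the hairpins 0 genes of the recruitment, augmin, centriole and mitosis lists passed by edgeR, DESeq2 or limma-voom, and 3 (all in the centriole list) had an unadjusted p under 0.05. Without control replicate 1 the list had 4 lower genes with shLMO2-1 (CCNB1, CDK1, TOP2A and TTK) and 5 with shLMO2-2 (these and BUB1). In that setting 1397 and 1131 of all genes passed in either direction. The TTK call with shLMO2-2 held in 18 of 18 alternative settings. The TTK call with shLMO2-1 was lost without control replicates 2 or 3, any shLMO2-1 replicate or shLMO2-2 replicate 2 (adjusted p 0.0528 to 0.109), and the TOP2A call without control replicate 3, shLMO2-1 replicates 1 or 2 or any shLMO2-2 replicate (0.051 to 0.128). With only the groups compared neither passed (0.0772 for TTK with shLMO2-1, 0.062 for TOP2A), and TTK with shLMO2-1 did not with no filter (0.0566).

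**Figure D4:**
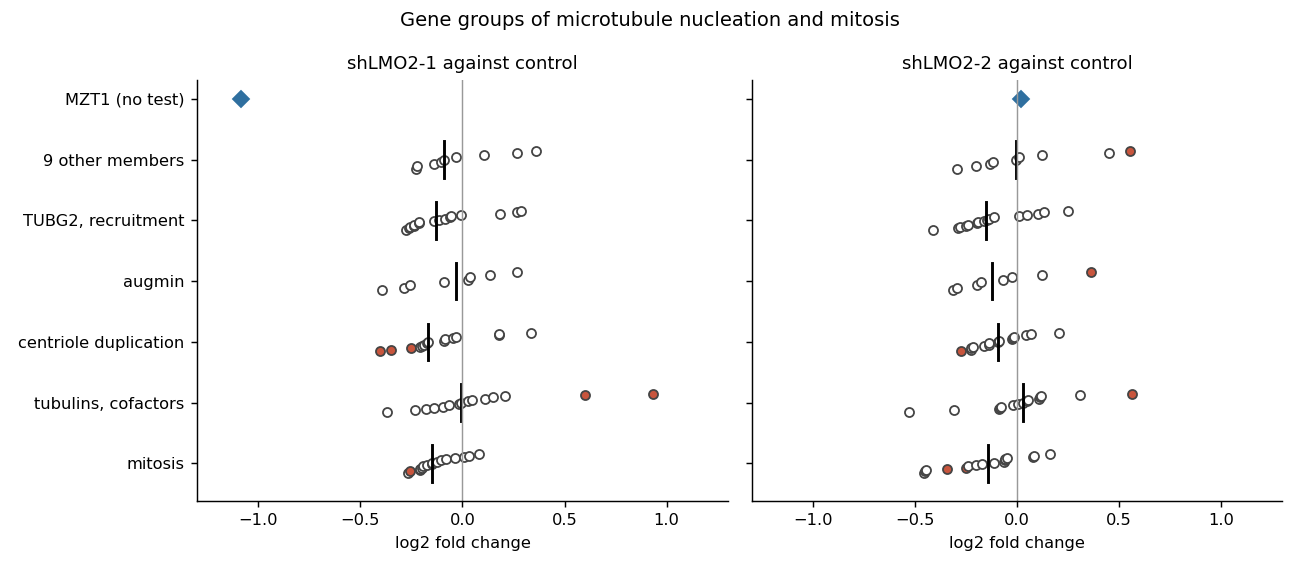
Log2 fold change against control of each gene in the lists around the ring complex, for shLMO2-1 and shLMO2-2. Filled circles passed the test, bars are list medians and the diamond is MZT1. TUBB2B (0.93) and TUBA1A (0.60) with shLMO2-1 are the highest called genes, and the list medians lie between −0.17 and 0.03.

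The genes whose levels most resembled MZT1 over the 9 libraries were taken from 11030 tested genes of at least 5 CPM, by Pearson's r of log2 CPM. The libraries form 3 groups and MZT1 separates only 1 of them, so a high r mostly picks genes that differ with shLMO2-1, and no p is given. The 5 highest were SSR1 (0.983), a protein translocation subunit of the endoplasmic reticulum, GMNN (0.980), the replication licensing inhibitor geminin, XAGE2 (0.971), a cancer-testis antigen gene, TXNDC16 (0.968) and ANXA8L1 (0.967). GMNN stood at 144 ± 5.57 CPM in control, 86.1 ± 2.62 with shLMO2-1 and 133 ± 6.11 with shLMO2-2 (SD, n = 3). XAGE2 stood at 39.9 ± 1.81, 16.5 ± 1.91 and 37.7 ± 1.19 CPM, a log2 fold change with shLMO2-1 (−1.28) larger in size than that of MZT1.

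The 5 lowest were TIMP3 (−0.968), an inhibitor of metalloproteinases, PLXNB2 (−0.962), a semaphorin receptor, SLITRK6 (−0.960), AK5 (−0.959), an adenylate kinase, and MEX3A (−0.952). SLITRK6 stood at 19.5 ± 1.04 CPM in control, 38.0 ± 2.81 with shLMO2-1 and 22.2 ± 2.45 with shLMO2-2, the reverse of the MZT1 pattern. Among the other members r with MZT1 ran from −0.345 for TUBGCP2 to 0.614 for TUBGCP6. By Spearman's rho TUBGCP6 stood at 0.700, beside 0.750 to 0.833 for the 5 genes of highest r and −0.950 to −0.517 for the 5 of lowest r. By Spearman's rho 1 of the 10 genes remained among the extremes, and 5 to 9 remained when 1 library was left out.

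**Figure D5:**
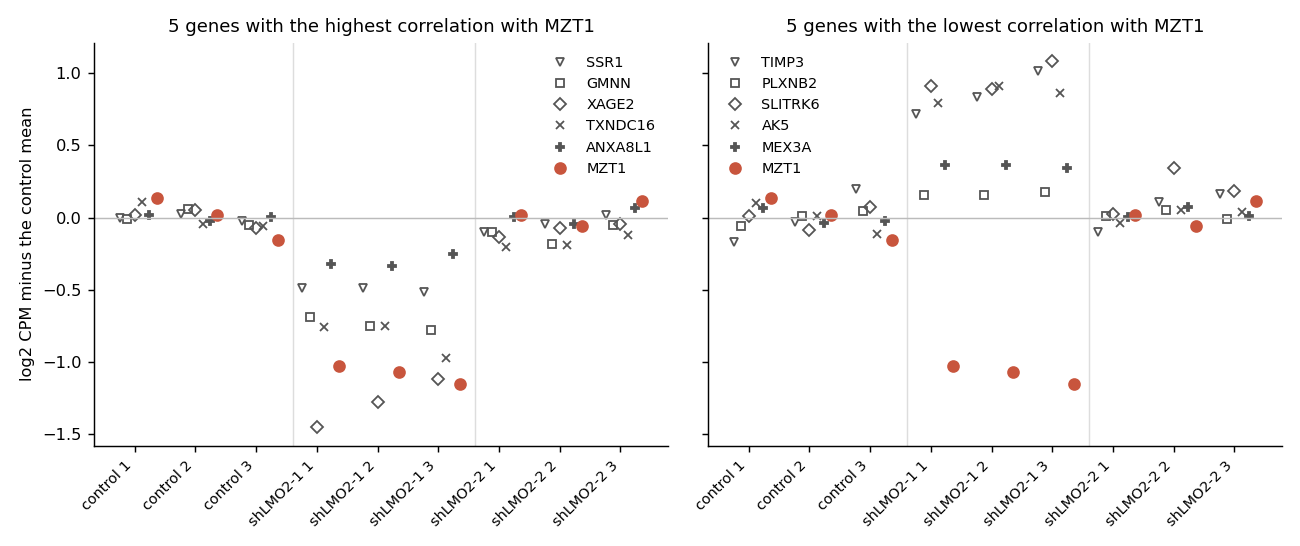
Log2 CPM in each of the 9 libraries, relative to the mean of the controls, for MZT1 and the 10 genes with the highest and lowest Pearson's r with it. In the shLMO2-1 libraries the genes of high r sit below 0 with MZT1 and those of low r sit above 0.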

How the data were processed

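RNA of 9 libraries was measured by sequencing of poly(A)-selected RNA, per the labels' protocols, and the labelled plasmid gave each library its group. The authors deposited 1 table of estimated counts per gene symbol, of which 11.67% to 12.81% per library were not whole. The submitters' processing notes name Salmon 0.12, DESeq2 1.22.2 and GRCh38.p12. The annotation release and use of strand are not given in the sources used here. Where reads match several genes, such counts can move between copies.

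Counts were rounded and tested with edgeR 4.0.16 (R 4.3.3): TMM scaling, a filter of at least 10 counts (minimum total 15), with LMO2 added back, and a quasi-likelihood fit of 3 groups over all 9 libraries. The 14709 tested genes held 99.91% of counts. Adjusted p-values are Benjamini-Hochberg over these genes, with calls under 0.05. Standard errors came from the F statistic, and 95% intervals cover the spread between libraries. CPM uses the TMM-scaled totals, except in the sums over marker genes, which use plain totals. Replicates differed beyond counting noise (chi-square per gene 4.783 to 25.36), so none was counted as a repeat.

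Members and lists were chosen with earlier results of these data known. All members and LMO2 were named, genes of the other lists where called (at most 4 per list and comparison), and all MZT1 neighbours. Genes called only under an alternative, and TUBG2, CDK5RAP2 and PCNT, were named after their values were seen. Gene positions are from GENCODE 29 (GRCh38) and promoter windows from RefSeq (GRCh38.p14). The fit was tested on simulated data for shLMO2-1 against control (14479 genes), where it recovered 56 of 100 genes changed 1.5-fold and 98 of 100 changed 2-fold, and called 6 unchanged genes. Only genes with a mean of at least 5 CPM were changed. Counts were drawn independently, with no factor shared by replicate number, so these figures may differ in the real libraries. Alternatives were other scalings, filters, limma-voom 3.58.1, DESeq2 1.42.0, a replicate block, only the groups compared, and each library left out. The sums of copies and the BORA reference were added after seeing the data.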

Additional observations from a re-analysis of the deposited data

How the results depend on the processing

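The MZT1 values kept their direction against control with shLMO2-1 and between the hairpins in all 18 alternative settings. Relative to the ring proteins, leaving out each library gave −1.09 to −0.92, −0.01 to 0.17 and 1.04 to 1.13 for the 3 comparisons, and the shLMO2-2 value became −0.037 with BORA as the reference. The number of the 9 other members that passed was 1 with shLMO2-1 with no filter on low counts, where 1680 of all genes passed. In shLMO2-2 it was 2 with no filter (1895 of all genes), 2 with DESeq2 (1837 of all genes), and 0 to 1 over the libraries left out. The MZT2A and MZT2B sum passed with shLMO2-1 with no filter (0.29) and with shLMO2-2 with no filter (0.48), limma-voom (0.48) and DESeq2 (0.47). Leaving out each library gave sums of 0.15 to 0.41, 0.34 to 0.59 and 0.10 to 0.32.

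The labels do not say that replicate numbers pair libraries, and 6 of 9 same-numbered pairs deviated together (r over 0.1, range −0.05 to 0.25), against 2 of 18 pairs with other numbers. A total of 5 of 9 libraries correlated best with their own number in both other groups. The data thus hint at a shared factor, but since not every same-numbered pair was over 0.1 the numbers were not taken to pair the libraries. The main fit therefore leaves any such factor in the spread between libraries. With a replicate block all genes called became 2214, 2377 and 257 in place of 1239, 1320 and 113. The members that passed became 1 with shLMO2-1 (MZT2A) and 3 with shLMO2-2 (MZT2A, MZT2B and NEDD1), and the MZT2 sum passed in both (0.29 and 0.48). The NEDD1 value with shLMO2-2 in this edgeR fit was −0.29 (adjusted p 0.0199). Its shLMO2-2 libraries lay below all controls, so any pairing of them gives a lower value. The block also called KLF5 (0.28), LMO2 (−2.30) and TOP2A (−0.21) with shLMO2-1, and TUBA1A (−0.49) and TUBB2B (−0.38) between the hairpins. Outside the block, all genes called between the hairpins were 378 with no filter and 316 with DESeq2. With only the groups compared they were 695, 776 and 189 in the 3 comparisons. Leaving out each library gave 546 to 1397, 494 to 1243 and 38 to 239.

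Values near 0 changed sign. TUBG1 with shLMO2-2 became −0.038 with total counts and −0.0013 with at least 10 counts in every library, its sum with TUBG2 −0.030 with total counts, and TUBGCP3 with shLMO2-2 0.0025 with limma-voom and 0.0047 with the block. Without 1 library, log2 fold changes with shLMO2-1 ran from −0.050 to 0.043 for BORA, −0.12 to 0.052 for TUBG1, −0.097 to 0.067 for its sum with TUBG2 and −0.25 to 0.034 for TUBGCP3. With shLMO2-2 they ran from −0.013 to 0.092 for BORA, −0.078 to 0.094 for TUBG1, −0.069 to 0.097 for the sum, −0.16 to 0.12 for TUBGCP3, −0.062 to 0.012 for DIS3 and −0.10 to 0.046 for CEP97. Between the hairpins they ran from −0.0074 to 0.049 for TUBGCP2, −0.00098 to 0.17 for TUBGCP3, −0.064 to 0.082 for TUBGCP5, −0.13 to 0.068 for NEDD1, −0.014 to 0.094 for DIS3, −0.17 to 0.013 for KLF5, −0.23 to 0.10 for PIBF1 and −1.002 to 0.45 for LMO2.

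With merged exons the control levels in CPM per kilobase were 55.3 for MZT2B, 45.5 for TUBG1, 8.88 for TUBGCP3, 8.03 for TUBGCP2, 8.26 for MZT2A, 4.63 for TUBGCP4, 3.05 for TUBGCP5 and 1.65 for TUBGCP6. These levels differ from those by longest transcript only in the length used. The cause of the other changes in this section was not tested. Other scalings moved the median over all genes by at most 0.05 in size. The 297 to 1047 counts of MZT1 per library allow a smaller relative error than the 1 to 35 counts of LMO2.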
